A study of Mus musculus with 10 samples.

Results

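The genes described here are the ligands of the tumour necrosis factor (TNF) superfamily and their receptors, as expressed in carcinoma-associated fibroblasts (CAF) and in normal fibroblasts cultured from mouse lung. Members were chosen by symbol: every gene named Tnfsf or Tnfrsf with a number, together with Tnf, Lta, Ltb, Ltbr, Cd40, Cd40lg, Fas, Fasl, Ngfr and Eda2r. The symbol rule used no measured value. In the mouse gene table, 41 symbols matched it, and 36 of them were measured among the 18193 genes of the array. The other 5, Tnfrsf26, Tnfsf12, Tnfsf13, Tnfsf15 and Tnfsf18, were not analysed here. The 36 members were 12 ligands, 6 receptors with a death domain, 15 receptors that bind TRAF adaptors and have no death domain, and 3 decoy receptors.

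TNF superfamily ligands are mostly membrane proteins that act as trimers, on neighbouring cells or after a protease has cut them free. A receptor with a death domain can recruit FADD and caspase-8 and start cell death, while TRAF-binding receptors lead through IKK to NF-kB, and TNFR1 can do both. Decoy receptors bind a ligand without passing its signal on. In lung, fibroblasts carry several of the receptors, whereas most of the ligands are known from lymphocytes and myeloid cells.

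RNA was measured on 10 Affymetrix Mouse430_2 arrays, 5 of CAF and 5 of normal lung fibroblasts. Both kinds of cell came from mouse lung. In medium with 10% serum they were expanded for 10 to 14 days. They were then replated on 10 cm dishes for a night before RNA was collected, and no agent is named for either group. The strain, age and genotype of the mice, and the tumour that gave the CAF, were not given in the sources used here. The titles number them as biological replicates 1 to 5 in each group. All values are log2 expression from the robust multi-array average method (RMA), differences are CAF minus normal, and a value of 1 on this scale is a 2-fold difference. Probe sets differ in their response, so a brighter signal of 1 gene than of another is not a higher transcript level. RMA gives no detection call, so a dim signal may be background.

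The fibroblast label was checked first. The mean of 13 fibroblast markers, of which Acta2, Col1a2 and Vim were the brightest, was 13.22 ± 0.49 in CAF and 13.26 ± 0.68 in normal cultures (SD, n = 5 each). Single markers could vary more, and Lum read 7.06 to 14.12 in CAF and 8.18 to 14.49 in normal cultures. Macrophage markers were bright too. The mean of the 12 markers was 10.60 to 13.10 in CAF and 9.71 to 13.20 in normal cultures, and Lyz2, the lysozyme of macrophages, averaged 15.02 in CAF and 14.76 in normal cultures. Lymphocyte markers were dim, with a mean of 6.30 ± 0.06 in CAF and 6.42 ± 0.06 in normal cultures, against array medians of 6.73 to 6.74 in CAF and 6.76 to 6.79 in normal cultures. Marker means in CAF and normal cultures were 6.07 and 6.16 for endothelium, 6.73 and 7.0 for epithelium, 7.83 ± 0.95 and 8.76 ± 1.74 for mesothelium, and 7.17 ± 0.22 and 7.76 ± 1.71 for neutrophils. The neutrophil mean was 10.73 in normal replicate 3 and 6.53 to 7.63 on the other normal arrays. Of the 5 neutrophil markers, S100a8 averaged 11.74 in CAF and 10.23 in normal cultures, a difference of 1.51 ± 1.09 (SE). The other 4 had negative differences. All 5 mesothelial markers had a negative difference. That of Lrrn4 was the lowest of all genes, at -2.99 ± 1.15 (SE; limma adjusted p = 0.170). The codes in the labels begin with ls for all 5 CAF arrays and normal replicates 4 and 5, and with vs for normal replicates 1 to 3. The labels do not say what these letters mean. Differences are therefore also given against each set of normal arrays. In such mixed RNA, fewer cells of a type and less RNA per cell cannot be told apart.

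None of the 36 members passed limma's test at an adjusted p under 0.05, and 0.753% of all genes did, 0.561% higher and 0.192% lower in CAF. That balance over all genes turned with the scaling: 102 were higher and 35 lower as deposited, 43 and 49 after quantile normalisation, and 250 and 35 with each array centred on its median. The smallest adjusted p of a member was 0.0741. The exact Wilcoxon test called 0 members and 0 genes, with 8 members (22.2%) and 17.5% of all genes at an unadjusted p under 0.05. With 5 arrays per group its p cannot fall below that of groups without overlap. Its lowest adjusted p over all genes was 0.111, so its count of 0 says little. At an unadjusted limma p under 0.05 there were 11 members (30.6%), 5 higher and 6 lower in CAF, where 22.3% of all genes passed, 10.5% higher and 11.8% lower. The members at that p were 6 (16.7%, against 18.4% of all genes) after quantile normalisation, 7 (19.4% against 20.7%) with centring, and 1 (2.78% against 14.6%) with the label prefix as a term in the fit. They were also 7 (19.4% against 26.6%) in the comparison with the ls normal arrays, 6 (16.7% against 18.2%) without CAF replicate 4, and 7 (19.4% against 16.5%) without CAF replicate 5. The balance over all genes moved as well, to 7.39% higher and 11% lower after quantile normalisation and 13.1% higher and 7.61% lower with centring. In 0 members did the 5 CAF values lie wholly above or below the 5 normal values, which was the case for 7.16% of all genes, 2.97% above and 4.19% below. With centring 767 genes lay wholly above and 437 below, against 540 and 762 as deposited. A difference of 2-fold or more was seen in 2 members (5.56%), Tnfrsf11b and Tnfrsf23, and in 2.2% of all genes. The median difference was -0.06 over the members and -0.04 over all genes.

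Of the ligands, 10 of 12 were negative, with a median of -0.13 and a range of -0.61 to 0.29. Of the death domain receptors, 4 of 6 were positive, with a median of 0.23. The TRAF-binding receptors had 6 positive and 9 negative differences and a median of -0.07. The 3 decoys were all positive, with a median of 1.18. These counts were read beside the brightness of the genes, because 10 members lay below the array median on every array and all 10 had a negative difference, with a median of -0.10. Among all 6266 genes whose mean lay below the array median, 21% were positive and the median was -0.09, while among the brighter genes 54.1% were positive.

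**Figure D1:**
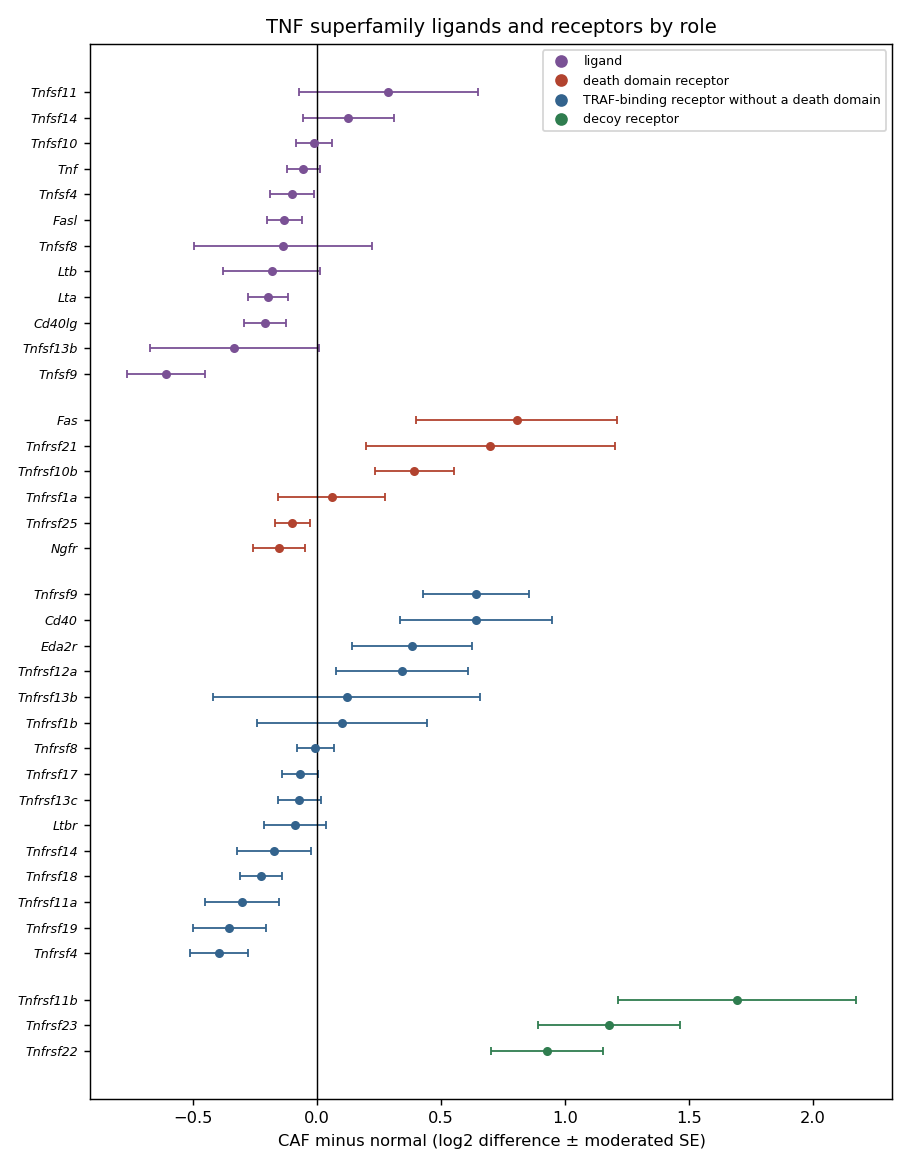
Log2 difference, CAF minus normal, for each of the 36 members, grouped by role from ligands at the top to decoy receptors at the bottom. Points are the limma estimates and bars the moderated standard error. The decoys lie furthest to the right, between 0.93 and 1.69, and Tnfsf9 furthest to the left at -0.61.

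The decoy receptors had the largest positive differences of the family, from 1.90-fold to 3.23-fold. Tnfrsf11b encodes osteoprotegerin, a secreted decoy that binds Tnfsf11 (RANKL) and Tnfsf10 (TRAIL). It read 8.71, 8.60, 10.46, 9.49 and 9.77 in CAF, against 7.04, 8.70, 6.57, 7.87 and 8.38 in normal cultures. In 4 of 5 CAF arrays it was above every normal array, and normal replicate 2 was above CAF replicate 2. The difference was 1.69 ± 0.48 (SE; 3.23-fold; limma adjusted p = 0.0956), with 1.28 against the ls arrays and 1.97 against the vs arrays of the normal group. With array quality weights its adjusted p was 0.0496 and it was called, in a fit that called 8.78% of all genes and 1 of 36 members. Its other probe set gave 2.05 ± 0.68.

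Tnfrsf23 and Tnfrsf22 encode mouse membrane receptors that bind Tnfsf10 and lack a death domain. Tnfrsf23 read 10.09, 10.16, 10.65, 10.35 and 9.74 in CAF, against 8.30, 9.10, 8.53, 9.37 and 9.80 in normal cultures. Tnfrsf22 read 10.56, 10.68, 11.10, 10.69 and 10.22 in CAF, against 9.32, 9.92, 9.23, 9.82 and 10.31 in normal cultures. In both genes 4 CAF arrays were above every normal array, and CAF replicate 5 was just under normal replicate 5. The difference was 1.18 ± 0.29 for Tnfrsf23 (2.26-fold; limma adjusted p = 0.0741). For Tnfrsf22 it was 0.93 ± 0.23 (1.90-fold; limma adjusted p = 0.0744).

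Both decoys were closer to the ls than to the vs normal arrays. Against the 2 ls arrays Tnfrsf23 differed by 0.61 ± 0.24, and against the 3 vs arrays by 1.55 ± 0.24. The comparison with the vs arrays alone called Tnfrsf23 (limma adjusted p = 0.0479) and no other member, with 0.522% of all genes called, while that with the ls arrays alone called 0 members and 0.0055% of all genes. Tnfrsf22 differed by 0.58 from the ls and by 1.16 from the vs arrays. Leaving out any 1 array left a difference between 1.00 and 1.37 for Tnfrsf23 and between 0.80 and 1.07 for Tnfrsf22. The other 2 probe sets of Tnfrsf22 each gave 1.10. On 1 of them the CAF arrays (7.70, 7.95, 8.24, 8.11 and 7.89) all lay above the normal arrays (6.18, 6.31, 6.87, 7.36 and 7.66).

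Tnfrsf22 and Tnfrsf23 are adjacent on chromosome 7, with 0 protein-coding genes between them. The start of Tnfrsf23 is shown because this pair had the 2 smallest adjusted p-values of the family. It covers 250 bases before and 50 after the annotated start at chr7:143685826-143686125 on the minus strand (RefSeq, GRCm38.p6), written 5′ to 3′ along the gene. None of it is in capitals, because neither the NF-kB pattern (GGG and TTCC with any 3 bases between them) nor the AP-1 pattern TGANTCA was found in it on either strand. Counted on either strand, it holds 1 copy each of GGGCGG and TATAAA. Both are on the strand opposite to the gene, so the printed letters read ccgccc and tttata.
Tnfrsf23: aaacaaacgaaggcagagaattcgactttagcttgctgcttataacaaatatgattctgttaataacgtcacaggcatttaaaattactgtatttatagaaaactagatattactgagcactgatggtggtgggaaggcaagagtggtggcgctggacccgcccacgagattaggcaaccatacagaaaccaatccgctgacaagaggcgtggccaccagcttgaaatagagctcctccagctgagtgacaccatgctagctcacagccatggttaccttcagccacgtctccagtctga

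Among the ligands, Tnfsf9 had the largest difference. It encodes the ligand of 4-1BB, a co-stimulator of T cells. It read 7.31, 7.81, 7.14, 7.07 and 7.63 in CAF, against 8.07, 8.08, 8.18, 7.98 and 7.68 in normal cultures. In 4 of 5 CAF arrays it was below every normal array, and normal replicate 5 fell among the CAF values. The difference was -0.61 ± 0.16 (limma adjusted p = 0.0850), with -0.44 against the ls and -0.72 against the vs arrays.

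Cd40lg and Lta were the other ligands at an unadjusted p under 0.05, both dim. Cd40lg, the T cell ligand of CD40, read 6.21, 5.97, 6.15, 5.98 and 5.81 in CAF, against 6.12, 6.25, 6.17, 6.34 and 6.30 in normal cultures. Lta, lymphotoxin alpha, read 6.29, 6.48, 6.21, 6.21 and 6.05 in CAF, against 6.46, 6.51, 6.37, 6.39 and 6.48 in normal cultures. The groups overlapped in both, and both were below the array median on all 10 arrays. Their differences were -0.21 ± 0.09 and -0.19 ± 0.08 (limma adjusted p = 0.192 and 0.193).

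Tnf itself, the cytokine that names the family, read 7.59, 7.49, 7.44, 7.57 and 7.51 in CAF, against 7.61, 7.43, 7.71, 7.60 and 7.51 in normal cultures. The groups overlapped throughout, with a difference of -0.05 ± 0.07 (limma adjusted p = 0.657). Tnfsf11, which drives osteoclast formation through Tnfrsf11a, read 6.57, 6.58, 5.69, 6.37 and 6.56 in CAF, against 5.28, 7.20, 5.86, 6.53 and 5.46 in normal cultures. Here the normal arrays spanned the CAF arrays entirely, and the difference was 0.29 ± 0.36.

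Tnfsf10, the death ligand bound by all 3 decoys, read 5.65, 5.69, 5.98, 5.73 and 5.68 in CAF, against 5.72, 5.81, 5.82, 5.71 and 5.73 in normal cultures. It was below the array median on every array. Tnfsf4, the ligand of OX40, read 5.93, 6.05, 6.00, 5.93 and 5.73 in CAF, against 5.91, 5.85, 6.07, 6.22 and 6.07 in normal cultures. The groups overlapped in both genes, and the differences were -0.01 ± 0.07 and -0.10 ± 0.09.

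The survival factor of B cells Tnfsf13b (BAFF) averaged 7.83 ± 0.18 in CAF and 8.17 ± 0.81 in normal cultures (SD, n = 5 each). It differed by 0.30 from the ls and by -0.75 from the vs normal arrays, and normal replicate 2 was its highest array at 9.49. Without that array the pooled difference was -0.0016. The 4 remaining ligands, Fasl, Ltb, Tnfsf8 and Tnfsf14, had differences between -0.18 and 0.13, with limma adjusted p from 0.309 to 0.848.

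**Figure D2:**
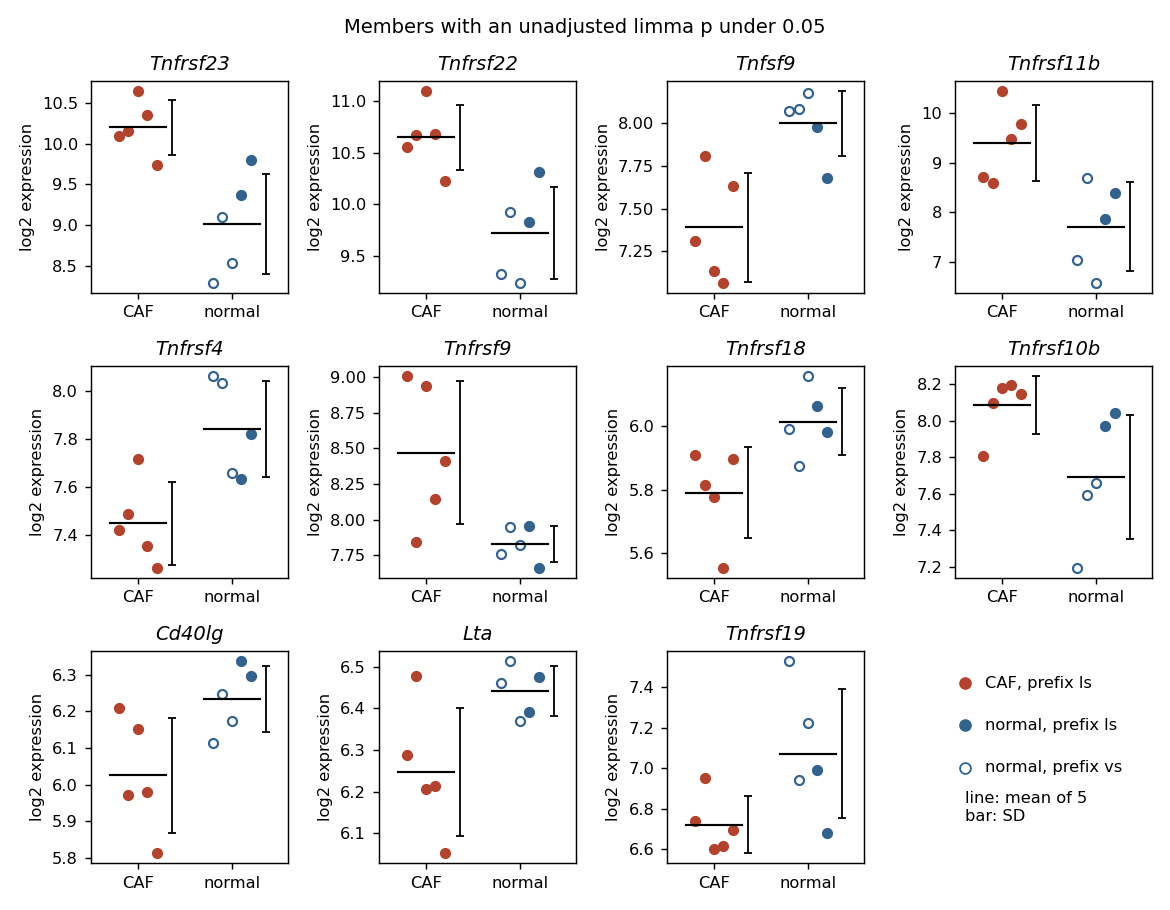
Log2 expression on each array for the 11 members with an unadjusted limma p under 0.05, CAF left of normal. Filled points have the label prefix ls and open points vs; lines are means and bars the SD of 5 arrays. In each panel the groups overlap, as for Tnfrsf23, where CAF replicate 5 (9.74) lies under normal replicate 5 (9.80).

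Among the death domain receptors, Tnfrsf10b was the only member at an unadjusted p under 0.05. It encodes the mouse death receptor for Tnfsf10. It read 7.81, 8.10, 8.18, 8.20 and 8.14 in CAF, against 7.19, 7.59, 7.66, 7.97 and 8.04 in normal cultures. In 4 CAF arrays it was above every normal array, and CAF replicate 1 was lower than both ls normal arrays. The difference was 0.39 ± 0.16 (1.31-fold; limma adjusted p = 0.183), with 0.08 against the 2 ls normal arrays and 0.60 against the 3 vs arrays. Its other probe set gave 0.42.

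Fas, the receptor of the killer-cell ligand Fasl, averaged 9.84 ± 0.82 in CAF and 9.04 ± 0.57 in normal cultures (SD, n = 5 each). Its difference was 0.81 ± 0.41 (limma adjusted p = 0.274), and 2 of 5 CAF arrays were above every normal array, with the other 3, at 8.60, 9.74 and 9.86, below normal replicate 2 at 9.97. Tnfrsf21 (DR6), a death receptor studied in neurons and lymphocytes, read 10.81, 9.84, 10.12, 9.77 and 10.65 in CAF, against 10.82, 8.06, 10.27, 8.67 and 9.88 in normal cultures. Every CAF array lay within the normal range, which spanned more than that of CAF, and the difference was 0.70 ± 0.50.

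Tnfrsf1a (TNFR1), the main receptor of Tnf on most cells, read 11.74, 11.31, 11.38, 11.64 and 11.40 in CAF, against 11.64, 12.20, 11.11, 11.09 and 11.12 in normal cultures. Every CAF array was above both ls normal arrays, and normal replicate 2 was above every CAF array. The pooled difference was 0.06 ± 0.22, with 0.39 against the ls and -0.16 against the vs arrays. Ngfr, the neurotrophin receptor p75, and Tnfrsf25 (DR3) differed by -0.15 and -0.10, and 1 of the 3 probe sets of Ngfr had that sign.

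Differences of the TRAF-binding receptors ran from -0.39 to 0.64. Tnfrsf9 (4-1BB), the receptor of Tnfsf9, read 9.01, 7.84, 8.94, 8.14 and 8.41 in CAF, against 7.76, 7.95, 7.82, 7.95 and 7.66 in normal cultures. In 4 CAF arrays it was above every normal array, with CAF replicate 2 inside the narrow normal range. The difference was 0.64 ± 0.21 (1.56-fold; limma adjusted p = 0.130), and it was alike for the ls (0.66) and the vs (0.63) arrays of the normal group.

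The 3 probe sets of Tnfrsf9 disagreed. On the second the CAF arrays read 7.70, 6.23, 8.01, 6.49 and 7.91, against 5.82, 5.94, 5.81, 6.00 and 5.54 on the normal arrays, without overlap. That difference was 1.45 ± 0.35 (limma adjusted p = 0.0699 over all probe sets). On the third the values were 5.02 to 5.18 in CAF and 5.10 to 5.29 in normal cultures, with a difference of -0.08.

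RefSeq lists 2 starts for Tnfrsf9 on chromosome 4. Both are shown because this was the only TRAF-binding receptor higher in CAF at an unadjusted p under 0.05. The windows are chr4:150919905-150920204 and chr4:150927749-150928048 on the plus strand (GRCm38.p6), again from 250 bases before to 50 after the start. Capitals mark a match to the NF-kB pattern, GGGGATTTCC with its first base at -43, and a match to the AP-1 pattern, TGAGTCA at -15. Both were in the second window and neither pattern was in the first. Over all 32851 promoter windows of this length, 5.56% hold the NF-kB pattern and 7.81% TGANTCA on either strand. Of the 33 windows of the 29 members with an entry, 4 hold the first pattern and 6 the second. A match is a run of letters and not a measured binding site.
Tnfrsf9 first start: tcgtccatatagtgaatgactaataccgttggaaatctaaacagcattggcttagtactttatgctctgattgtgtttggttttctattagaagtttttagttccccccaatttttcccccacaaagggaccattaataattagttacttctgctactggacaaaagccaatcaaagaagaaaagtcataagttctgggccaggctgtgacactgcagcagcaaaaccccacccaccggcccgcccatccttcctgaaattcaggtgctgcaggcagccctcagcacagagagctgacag
Tnfrsf9 second start: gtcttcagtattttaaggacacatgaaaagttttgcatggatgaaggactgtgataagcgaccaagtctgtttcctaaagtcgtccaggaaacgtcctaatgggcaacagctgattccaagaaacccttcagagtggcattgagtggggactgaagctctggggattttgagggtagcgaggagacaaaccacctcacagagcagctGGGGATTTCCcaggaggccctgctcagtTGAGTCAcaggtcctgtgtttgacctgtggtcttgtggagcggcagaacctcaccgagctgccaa

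Tnfrsf4 and Tnfrsf18 encode OX40 and GITR, co-stimulatory receptors of T cells, and are adjacent on chromosome 4. Tnfrsf4 read 7.42, 7.49, 7.72, 7.35 and 7.26 in CAF, against 8.06, 8.03, 7.66, 7.63 and 7.82 in normal cultures. Tnfrsf18 read 5.91, 5.81, 5.78, 5.55 and 5.90 in CAF, against 5.99, 5.87, 6.16, 6.06 and 5.98 in normal cultures. CAF values lay below every normal array on 4 arrays for Tnfrsf4 and on 3 for Tnfrsf18. The differences were -0.39 ± 0.12 and -0.22 ± 0.08 (limma adjusted p = 0.104 and 0.165), and Tnfrsf18 was below the array median on every array.

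Tnfrsf19 (TROY), a receptor of neural and epithelial progenitors, read 6.74, 6.95, 6.60, 6.62 and 6.69 in CAF, against 7.53, 6.94, 7.22, 6.99 and 6.68 in normal cultures. Its difference was -0.35 ± 0.15 (limma adjusted p = 0.200), with -0.11 against the ls and -0.51 against the vs arrays. All 3 of its probe sets had a negative sign.

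Cd40, through which T cells activate antigen-presenting cells, read 7.78, 7.32, 8.72, 8.11 and 8.0 in CAF, against 8.19, 6.73, 7.54, 7.19 and 7.09 in normal cultures. Normal replicate 1 was higher than 4 of the 5 CAF arrays, and each CAF array was above both ls normal arrays. The difference was 0.64 ± 0.31 (limma adjusted p = 0.251), and all 3 probe sets were positive.

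Tnfrsf12a (Fn14), the receptor of TWEAK that is induced in injured tissue, read 13.57, 13.89, 13.97, 13.84 and 13.87 in CAF, against 12.84, 12.79, 13.76, 14.17 and 13.86 in normal cultures. Only normal replicates 1 and 2 stood apart, below all other arrays. The pooled difference was 0.34 ± 0.27, with -0.18 against the ls and 0.70 against the vs arrays. Ltbr, the lymphotoxin beta receptor, read 10.99, 11.06, 11.27, 11.03 and 11.17 in CAF, against 11.26, 11.62, 11.00, 11.12 and 10.96 in normal cultures. Those groups overlapped, with a difference of -0.09 ± 0.13.

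Tnfrsf1b (TNFR2), the second receptor of Tnf, read 9.49, 8.20, 7.73, 8.72 and 8.71 in CAF, against 9.21, 8.59, 8.58, 8.08 and 7.89 in normal cultures. Its groups overlapped, with a difference of 0.10 ± 0.34. Eda2r, a receptor of ectodysplasin-A2, averaged 9.48 ± 0.15 in CAF and 9.10 ± 0.57 in normal cultures (SD, n = 5 each), a difference of 0.38 ± 0.24. The osteoclast receptor Tnfrsf11a (RANK) differed by -0.30 ± 0.15 (limma adjusted p = 0.264). The other 5 receptors of this class, Tnfrsf8, Tnfrsf13b, Tnfrsf13c, Tnfrsf14 and Tnfrsf17, had differences between -0.17 and 0.12.

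Ligands were then set beside the receptors they bind, in 21 pairs that joined 12 ligands to 17 receptors. In 12 pairs the receptor difference was positive and the ligand difference negative, in 5 both were negative, in 3 the ligand alone was positive, and in 1, Tnfsf11 with Tnfrsf11b, both were positive. Members recur between pairs, so the pairs are not independent, and Tnfsf10, at -0.01, is in 4 of them. After quantile normalisation Tnfsf10 was at 0.063, Tnfrsf1a at -0.0015 and Tnfrsf1b at -0.017, and every pair with any of them left its class. The pair of Tnfsf13b and Tnfrsf13b did so too, with Tnfsf13b at 0.30 against the ls arrays and Tnfrsf13b at -0.34 against the vs arrays. The only pair with both members at an unadjusted p under 0.05 was the receptor Tnfrsf9 (0.64) with its ligand Tnfsf9 (-0.61). For Tnfsf11 the signalling receptor Tnfrsf11a was at -0.30 and the decoy Tnfrsf11b at 1.69.

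**Figure D3:**
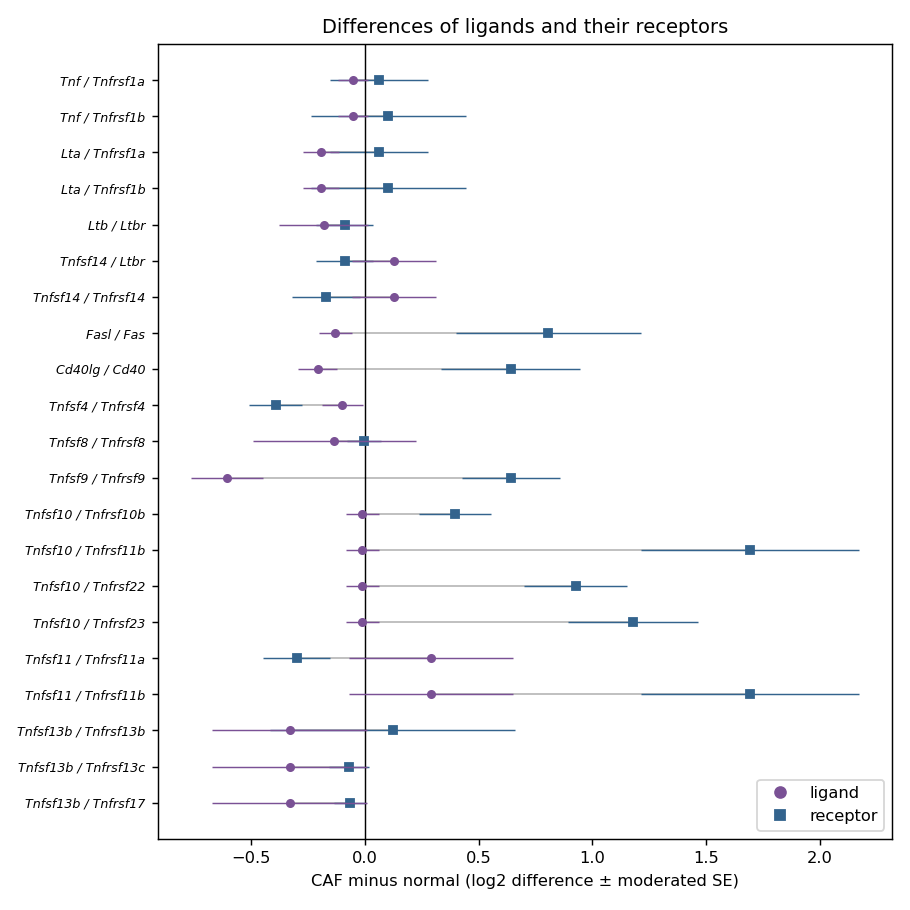
Log2 difference, CAF minus normal, of the ligand (circle) and the receptor (square) in each of 21 pairs, with bars for the moderated standard error. Ligands lie between -0.61 and 0.29. Tnfrsf11b, paired with Tnfsf10 and with Tnfsf11, lies furthest to the right at 1.69.

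Genes that act after the receptors were described from lists, which were chosen with earlier results of these data known. In each of these lists limma called 0 genes at an adjusted p under 0.05. Their counts at an unadjusted p under 0.05 stand beside 10.5% of all genes higher and 11.8% lower. Of 32 measured adaptors and complex proteins, 12 were higher and 2 lower in CAF at that p, with a median difference of 0.14. After quantile normalisation they were 8 higher and 6 lower, against 7.39% and 11% of all genes. In 7 of them (21.9%) the CAF arrays lay wholly above the normal arrays and in 0 below, against 2.97% above and 4.19% below over all genes. Quantile normalisation made this 5 above and 2 below, with 337 above and 719 below among all 18193 genes. Tank, a TRAF-binding scaffold, differed by 0.64 ± 0.12 (limma adjusted p = 0.0529). Tab3 and Tab2, which link ubiquitin chains to the kinase TAK1, differed by 0.61 and 0.39. Rbck1, a subunit of the linear ubiquitin ligase, had the smallest p among those lower in CAF, with -0.28 ± 0.10 (limma adjusted p = 0.153).

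Of 13 measured IKK and NF-kB genes, 8 were higher and 0 lower at an unadjusted p under 0.05, against 10.5% and 11.8% of all genes, with a median difference of 0.33. The count higher was 5 after quantile normalisation (7.39% of all genes), 5 against the vs arrays (8.99%) and 5 with the mean of a gene's probe sets (9.61%). Against the ls arrays it was 10 (13.3% of all genes). Nfkbia, the inhibitor that NF-kB itself induces, averaged 13.67 in CAF and 12.84 in normal cultures, a difference of 0.83 ± 0.18 (limma adjusted p = 0.0639). Rel, an NF-kB subunit, differed by 0.45 and the inhibitor Nfkbib by 0.33, both without overlap between groups. Bcl3, a nuclear partner of NF-kB, was the single negative gene at -0.16 ± 0.23.

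Genes known to respond to TNF, a list of 34, had 18 higher and 1 lower at an unadjusted p under 0.05, against 10.5% and 11.8% of all genes, and a median difference of 0.54. The count higher was 15 after quantile normalisation (7.39% of all genes), 14 with the label prefix as a term (8.2%) and 21 with array weights (15.1%). In 8 genes the CAF arrays lay wholly above the normal arrays and in 1 below (26.5%). Over all genes 2.97% lay above and 4.19% below. The mean of the 34 genes was 11.14 ± 0.22 in CAF and 10.33 ± 0.46 in normal cultures (SD, n = 5 each). That gap of mean values was 0.82 from the ls normal arrays and 0.81 from those with vs. Ier3, an early response gene, differed by 1.26 ± 0.24 (2.40-fold; limma adjusted p = 0.0508). Ptges, which makes prostaglandin E2, differed by 1.90 ± 0.37 (3.73-fold; limma adjusted p = 0.0529). Irf1, a transcription factor of interferon and TNF responses, was lower without overlap at -0.45 ± 0.10 (limma adjusted p = 0.0676). Many genes of this list also respond to other signals such as interleukin-1. Since the list was chosen with earlier results of these data known, its counts are not an independent test. Tnfaip3, Birc3 and Traf1 are also in the list of adaptors, and Nfkbia, Nfkb2, Relb and Bcl3 in that of IKK and NF-kB. Of these, Tnfaip3, Birc3, Nfkbia, Nfkb2 and Relb are counted as higher here and again there, so the lists are not independent.

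Sheddases and their regulators, which free ligands and receptors from the membrane, had 0 of 7 genes at an unadjusted p under 0.05. Rhbdf2, a partner of the TNF-cleaving protease Adam17, differed by 0.43 ± 0.21 (limma adjusted p = 0.263), Furin by 0.09 and Erap1 by 0.11. Timp3, an inhibitor of Adam17, differed by -0.15 ± 0.29. Of 5 relatives outside the symbol rule, Cd27, Edar and Relt differed by -0.17, -0.18 and -0.09, and Cd70 by 0.05.

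**Figure D4:**
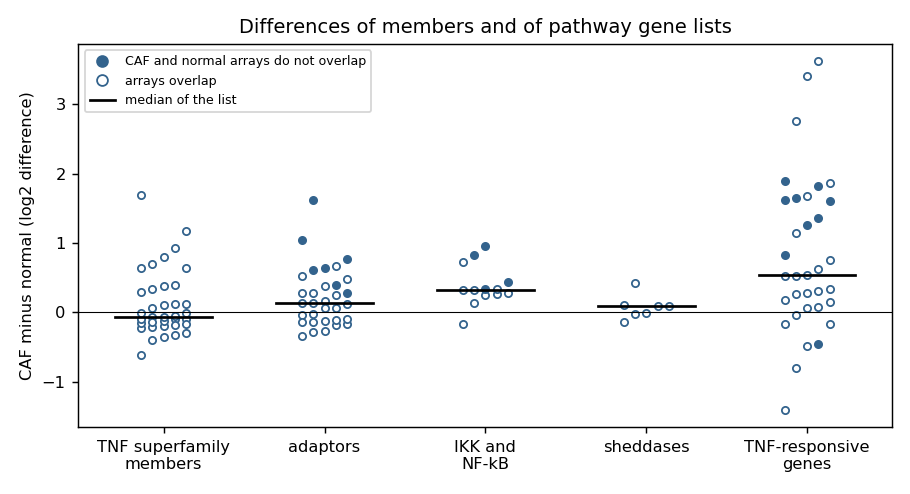
Log2 difference, CAF minus normal, of each gene in 5 lists. Points are genes, filled where the 5 CAF and 5 normal arrays do not overlap, and lines are medians. The family's median is -0.06 with 0 filled points, and the TNF-responsive genes have a median of 0.54 with 9 filled points, 8 higher and 1 lower in CAF. Over all genes 7.16% do not overlap.

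The spread of members between arrays was set beside that of the macrophage markers. The mean of the 12 markers was 13.10, 11.17, 10.60, 11.58 and 12.45 in CAF, against 13.20, 9.71, 12.23, 11.19 and 10.28 in normal cultures. The groups overlapped. In the pooled comparison all 12 markers had a positive difference, with none at an unadjusted p under 0.05. Their mean in CAF was 1.05 above that of the ls normal arrays, but only 0.07 above that of the normal arrays with vs. Compared with the vs arrays alone, Adgre1, Fcer1g, C1qa, C1qb and Mrc1 had negative differences, from -0.29 to -0.09. The other markers remained positive. Tnfrsf13b (TACI), a BAFF receptor of B cells and macrophages, read 8.20, 6.36, 6.04, 6.37 and 7.29 in CAF, against 7.57, 6.00, 8.02, 6.10 and 5.96 in normal cultures. Its values fell into 2 sets. The 4 arrays with a marker mean of 12.23 or more read 7.29 to 8.20, and the 6 with a marker mean of 11.58 or less read 5.96 to 6.37.

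Because of these sets no correlation is given for Tnfrsf13b with the macrophage markers. Each of the 36 members was set against the macrophage and the mesothelial marker means over 10 arrays, which made 72 relations, chosen after the values had been seen. Apart from that of Tnfrsf13b, none had a Benjamini-Hochberg adjusted p under 0.05. Tnfrsf21 had r = 0.78 with the macrophage markers (permutation p = 0.00576, adjusted p = 0.207) and rho = 0.78 (permutation p = 0.0101, adjusted p = 0.301). Without the 2 arrays farthest from the marker median r was 0.67, and within the 7 ls arrays 0.57. For Tnfrsf1b r was 0.77 (permutation p = 0.0102, adjusted p = 0.236) and rho 0.73 (permutation p = 0.0199, adjusted p = 0.358), with r = 0.49 without the 2 farthest arrays and 0.95 within the ls arrays. Tnfsf14 had r = 0.70 (permutation p = 0.0219, adjusted p = 0.236) and rho = 0.70 (permutation p = 0.0306, adjusted p = 0.367), with r = 0.87 without the 2 farthest and 0.88 within the ls arrays. Tnf had r = 0.67 (permutation p = 0.0349, adjusted p = 0.314) and rho = 0.77 (permutation p = 0.0125, adjusted p = 0.301), with 0.65 and 0.50.

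With the mesothelial markers Fas had r = -0.74 (permutation p = 0.0169, adjusted p = 0.236) and rho = -0.65 (permutation p = 0.0495, adjusted p = 0.435), with r = -0.61 without the 2 farthest arrays and -0.77 within the ls arrays. Tnfsf11 had r = -0.73 (permutation p = 0.0177, adjusted p = 0.236) and rho = -0.62 (permutation p = 0.061, adjusted p = 0.435), with r = -0.61 and -0.33. For Tnfrsf1a r was -0.70 (permutation p = 0.0229, adjusted p = 0.236) and rho -0.58 (permutation p = 0.0876, adjusted p = 0.465), with r = -0.31 and -0.81. Tnfrsf8 had r = -0.65 (permutation p = 0.045, adjusted p = 0.351) and Tnfrsf25 r = 0.64 (permutation p = 0.0488, adjusted p = 0.351). Tnfrsf9 had r = -0.47 (permutation p = 0.174, adjusted p = 0.488) and rho = -0.71 (permutation p = 0.0264, adjusted p = 0.367), with r = -0.90 and -0.62. What part macrophage or mesothelial RNA had in the differences of the members was not tested.

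**Figure D5:**
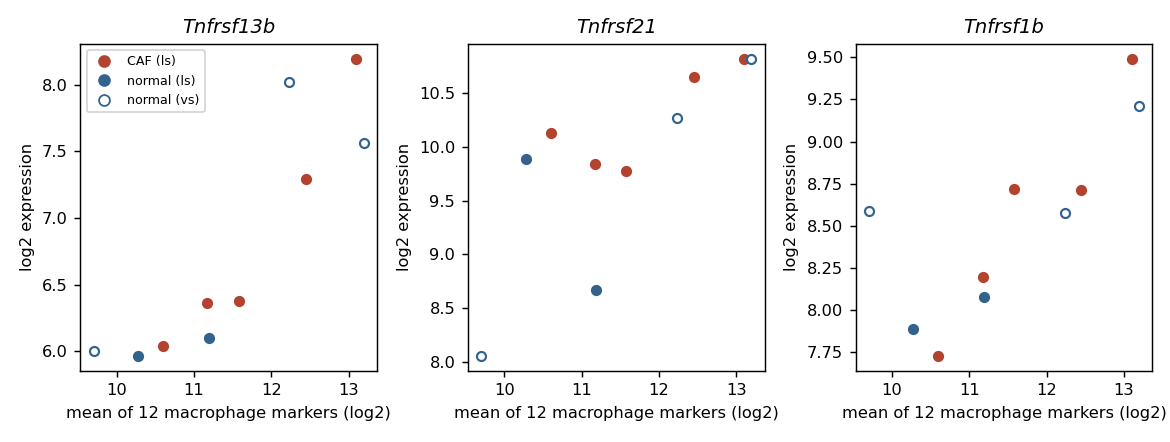
Log2 expression of Tnfrsf13b, Tnfrsf21 and Tnfrsf1b on each of 10 arrays against the mean log2 level of 12 macrophage markers on the same array. Red points are CAF, blue points normal cultures, and open points have the label prefix vs. Tnfrsf13b reads 7.29 or more on the 4 arrays with the highest marker mean and 6.37 or less on the other 6.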

How the data were processed

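The authors' deposited table holds log2 values for 45101 probe sets, 1 column per array, and all 10 columns were used. Per the submitters' processing notes, RMA in Affymetrix Expression Console made these log2 values, and limma was among the tools. RMA corrects background, quantile-normalises probes and summarises each probe set, so a difference is measured relative to the rest of the array. A number of 64 control probe sets were left out. Of the other 45037, 34945 had 1 gene symbol in the platform's annotation, 932 several and 9160 were not listed. Symbols were updated through the gene table of GRCm38.p6, which held the gene number of 34741.

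Each gene was represented by its single-symbol probe set with the highest mean, which gave 18193 genes. They were fitted with limma 3.58.1 in R 4.3.3 (lmFit, eBayes, group as the only term), p-values were adjusted over all genes by the Benjamini-Hochberg method, and the script was tested on simulated data. The number of arrays limits the precision. The members, lists and tests were chosen with earlier results of these data known. Values of every array were given for members with an unadjusted p under 0.05, for the ligands or receptors of those, and for the 6 members of highest mean signal. In other lists the 3 genes of smallest p and the best in the other direction were named, and up to 3 markers of highest signal for other cell types. Tnfrsf13b and the relations with marker means were described after their values had been seen. Alternatives in normalisation, probe set, filter, variance model, test, label prefix and arrays were run.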

Additional observations from a re-analysis of the deposited data

Results flagged for a closer look

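In 5 of 72 groups of 5 arrays, 1 array lay far from the others of its group by Dixon's test, and chance would give about 3.6 such groups. All were in CAF. Ngfr read 6.98 in CAF replicate 3, with the others at 6.49 to 6.63. Tnfrsf10b read 7.81 in CAF replicate 1, with the others at 8.10 to 8.20. Tnfrsf13c read 6.56 in CAF replicate 2, with the others at 6.21 to 6.28. Tnfsf10 read 5.98 in CAF replicate 3, with the others at 5.65 to 5.73. Tnfsf11 read 5.69 in CAF replicate 3, with the others at 6.37 to 6.58.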

How the results depend on the processing

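The number of genes called, 137 of 18193, became 92 after quantile normalisation, 285 with each array centred on its median, 235 with the probe set of largest variance, 75 with dim genes left out, 355 with probe sets tested singly, 46 with a trended and robust variance, 1597 with array weights, 1 against the ls normal arrays, and 0 with the prefix as a term, with a replicate block or by the exact Wilcoxon test. At an unadjusted p under 0.05 those last 3 gave 2649, 3018 and 3192 genes. Leaving out 1 array gave 0 (without CAF replicate 1, 3 or 5 or normal replicate 3) to 166. With the replicate block 8 members (22.2%) were at an unadjusted p under 0.05, against 16.6% of all genes. The replicate numbers did not pair the arrays as a whole. With each gene's group mean subtracted, same-numbered arrays correlated between -0.53 and 0.34. Only CAF replicate 1, at 0.34, correlated best with the normal array of its own number. The count of members called, 0, became 1 with array weights (Tnfrsf11b) and 1 against the vs arrays (Tnfrsf23), and stayed at 0 to 0 when 1 array was left out. Members without overlap were 0 as reported, where 1302 of all 18193 genes had none. They were 2 with the mean of probe sets (1263 of all genes), 1 with the largest variance (1356) and 2 singly (2051). They were 7 against the ls arrays (32.6% of all genes), 5 against the vs arrays (12.9%), and 0 to 4 without 1 array (1429 to 2181 of all genes). The median member difference, -0.06, was -0.011 after quantile normalisation, 0.10 without dim genes, 0.034 with the prefix term and against the ls arrays, -0.11 against the vs arrays, -0.0006 with weights, -0.0048 singly, and -0.071 to -0.0004 without 1 array. The decoys had a median of 0.61 to 1.55, the ligands -0.17 to -0.09 and the death domain receptors 0.16 to 0.39 over the alternatives, while the TRAF-binding receptors went from -0.19 to 0.05. In 4 members, Ngfr, Tnfrsf1b, Tnfrsf9 and Tnfsf13b, a further probe set had the opposite sign when probe sets were tested singly. Among the alternatives that give 1 value per gene, 24 members had the same sign in all, and 12, whose differences were at most 0.34 in size, changed sign in at least 1; 11 members had no value without dim genes. Values of opposite sign were 0.0086 (Ltbr), 0.039 (Tnfsf13b) and 0.086 (Tnfsf8) with weights; 0.037 (Tnfrsf8) and 0.030 (Tnfsf10) with centring; -0.020 (Tnfrsf1b) with the mean of probe sets. With the prefix term and against the ls arrays they were 0.061 (Ltbr), -0.18 (Tnfrsf12a), 0.041 (Tnfrsf13c), 0.027 (Tnfsf10), 0.30 (Tnfsf13b) and 0.22 (Tnfsf8). Against the vs arrays they were -0.34 (Tnfrsf13b), -0.16 (Tnfrsf1a), -0.22 (Tnfrsf1b) and 0.021 (Tnfrsf8), and after quantile normalisation 0.0080 (Tnfrsf17), -0.0015 (Tnfrsf1a), -0.017 (Tnfrsf1b), 0.057 (Tnfrsf8) and 0.063 (Tnfsf10). Without 1 array the ranges were -0.15 to 0.018 (Ltbr), -0.21 to 0.44 (Tnfrsf13b), -0.023 to 0.25 (Tnfrsf1a), -0.13 to 0.31 (Tnfrsf1b), -0.045 to 0.031 (Tnfrsf8), -0.070 to 0.012 (Tnfsf10), -0.013 to 0.22 (Tnfsf14) and -0.36 to 0.035 (Tnfsf8). The cause of these shifts was not tested.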
